A study of Mus musculus with 6 samples.

Results

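The genes described here encode the constitutive proteasome, the protease that every cell builds from the 20S core and the 19S cap. They were chosen by name. Every gene probe whose accession matched a symbol made of Psma, Psmb, Psmc or Psmd and a number was taken, except Psmb8, Psmb9 and Psmb10, which replace catalytic subunits in the immunoproteasome, and Psmb11 and Psma8, which belong to thymus and testis. This gave 34 genes, measured by 42 of the 55681 gene probes. All 34 passed the filter on dim probes and were among the 22502 genes tested. Of these 22502, 14673 had a RefSeq symbol and 7829 were entries without one, kept under the array's own name. Both kinds are counted as genes below. The rule itself used no measured value. Psmd5, Psmd9 and Psmd10 carry subunit-like symbols but are chaperones that help assemble the 19S base and are not part of the finished particle.

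RNA was compared on 2-color arrays between CD45- live cells sorted from RANK-/- and RANK+/+ mammary tumors. RANK is the receptor for RANK ligand and is encoded by Tnfrsf11a. Both groups were orthotopic transplants of late MMTV-PyMT carcinoma cells, in which a mammary promoter drives the polyomavirus middle T oncogene, and both grew in C57BL/6 hosts, for which no change in RANK is named, of the same strain as the cells. The sort selected against leukocytes, but 8 of 13 leukocyte markers still passed the filter on dim probes. Fibroblasts and endothelial cells lack CD45 too and were not removed, so RNA of host cells could be in both groups. Per the methods the hosts were young females. The ages of the donors and the number of tumors behind each RNA were not given in the sources used here, so p-values measure only the spread between these RNAs. Each of 3 pairs of RNAs, with 1 RNA of each genotype, was hybridized to 2 technical arrays, A and B. Per the sample titles the RANK-/- RNA was in Cy5 in pair 1 and in Cy3 in pairs 2 and 3, on both arrays of a pair. The methods describe dye swaps for each sample, which these titles do not show, and every direction below follows the titles. With this arrangement the difference between pair 1 and the others cannot be told apart from dye.

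The label was checked first with Tnfrsf11a. Its probe was measured above background throughout (6 of 6 arrays, both channels). Its log2 ratio of the channel labeled RANK-/- over the channel labeled RANK+/+ was 2.03 in pair 1, 1.15 in pair 2 and 1.76 in pair 3. In all 3 pairs the signal was thus the stronger in RNA labeled RANK-/-, against the label. Whether the probe lies in the deleted part of the gene was not given in the sources used here. Whether the genotype labels of the channels were swapped was not tested, and a swap would reverse every direction below. All directions below are those of the labels. Per array and channel, 28926 to 32756 gene probes were well above background. The 8 epithelial markers were well above background in every channel, as the tumor label requires. Across all genes the ratios of pairs 1 and 2 had a Pearson correlation of -0.279, those of pairs 1 and 3 of 0.178, and those of pairs 2 and 3 of -0.0792, given without tests because genes are not independent.

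The proteasome degrades proteins that carry ubiquitin chains. Its 20S core is a barrel of stacked alpha and beta rings, in which Psmb6, Psmb7 and Psmb5 hold the caspase-like, trypsin-like and chymotrypsin-like active sites. The 19S cap binds the ubiquitin chain, removes it, unfolds the protein with a ring of ATPases and feeds it into the core. The subunits are made in fixed proportion, and their genes are known to be raised together by the transcription factor NRF1 (Nfe2l1) when proteasome activity falls.

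The promoters are shown because proteasome genes are known for shared control elements in them. RefSeq windows (GRCm38.p6, 250 bases before the start and 50 after) were matched by symbol for 28 of the 34 members, in 30 windows. Psmb1, Psmb2, Psmb7, Psmc3, Psmd3 and Psmd7 had no entry. The letters searched on both strands were TGACNNNGC, the antioxidant response element that NRF1 and NRF2 bind; CCAAT, the NF-Y box; GGGCGG, the GC box; and CCGGAAG, an ETS site. The first pair of sequences belongs to catalytic subunits with an antioxidant response element, the next pair to members of the 19S base whose ratio was above 0 in all 3 pairs, and the last pair to the members whose ratios spread most between pairs. Capitals mark a match to any of the 4 motifs, which may overlap.
Psmb5, chr14:54617946-54618245, minus strand: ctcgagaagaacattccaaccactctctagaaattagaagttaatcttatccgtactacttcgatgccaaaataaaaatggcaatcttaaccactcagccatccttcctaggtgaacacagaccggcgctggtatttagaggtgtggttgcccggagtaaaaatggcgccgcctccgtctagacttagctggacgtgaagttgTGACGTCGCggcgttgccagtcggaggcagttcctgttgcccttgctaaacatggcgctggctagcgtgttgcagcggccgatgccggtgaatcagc
Psmb6, chr11:70525107-70525406, plus strand: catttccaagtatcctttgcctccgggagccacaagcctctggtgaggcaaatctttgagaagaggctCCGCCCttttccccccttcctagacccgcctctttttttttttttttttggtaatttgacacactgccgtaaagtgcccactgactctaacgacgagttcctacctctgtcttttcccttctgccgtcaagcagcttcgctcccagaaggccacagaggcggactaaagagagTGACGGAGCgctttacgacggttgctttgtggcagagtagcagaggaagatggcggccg
Psmd2, chr16:20651402-20651701, plus strand: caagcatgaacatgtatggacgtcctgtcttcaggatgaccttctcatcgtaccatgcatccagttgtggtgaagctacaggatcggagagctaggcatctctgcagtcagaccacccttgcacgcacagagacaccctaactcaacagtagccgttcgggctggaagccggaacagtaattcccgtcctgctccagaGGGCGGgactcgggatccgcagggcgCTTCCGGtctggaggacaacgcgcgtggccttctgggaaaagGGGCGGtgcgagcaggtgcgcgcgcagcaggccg
Psmd4, chr3:95042565-95042864, minus strand: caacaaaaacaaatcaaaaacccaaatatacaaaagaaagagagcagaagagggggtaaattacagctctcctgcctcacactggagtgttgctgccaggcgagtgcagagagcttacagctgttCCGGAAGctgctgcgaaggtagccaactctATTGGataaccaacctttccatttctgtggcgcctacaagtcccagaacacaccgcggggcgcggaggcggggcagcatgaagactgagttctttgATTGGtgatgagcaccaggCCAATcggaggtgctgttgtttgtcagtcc
Psma7, chr2:180042415-180042714, minus strand: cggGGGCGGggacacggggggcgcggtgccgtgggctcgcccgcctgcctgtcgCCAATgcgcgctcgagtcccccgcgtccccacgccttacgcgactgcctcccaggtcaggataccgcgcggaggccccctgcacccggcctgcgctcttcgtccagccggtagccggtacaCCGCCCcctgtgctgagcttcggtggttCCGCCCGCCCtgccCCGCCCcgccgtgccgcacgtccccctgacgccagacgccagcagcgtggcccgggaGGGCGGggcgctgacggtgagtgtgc
Psmd14, chr2:61711444-61711743, plus strand: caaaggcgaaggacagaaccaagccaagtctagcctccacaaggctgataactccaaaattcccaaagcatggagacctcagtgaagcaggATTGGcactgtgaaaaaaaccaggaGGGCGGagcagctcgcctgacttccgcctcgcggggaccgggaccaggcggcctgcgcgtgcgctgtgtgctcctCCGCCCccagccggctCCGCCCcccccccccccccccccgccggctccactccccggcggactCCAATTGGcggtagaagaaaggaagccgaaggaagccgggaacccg
The antioxidant response element letters were in 5 of 30 member windows (16.7%, against 12.4% of all 32851 windows), those of Psmb5, Psmb6, Psmc6, Psmd12 and Psmd9. The CCAAT letters were in 11 of 30 (36.7%, against 37.4%) and the GC box in 18 of 30 (60%, against 35.7%). The ETS letters were in 11 of 30 (36.7%, against 8.86%), in 10 genes that included both Psmd2 and Psmd4. A match is a run of letters and was not tested as a binding site.

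The constitutive proteasome transcripts differed little between the channels, and no difference passed a test. With loess, the correction for signal intensity used here, all 34 members had a mean log2 ratio between -0.5 and 0.5. By the brightest probe of each gene, these means ran from -0.29 for Psma6 to 0.45 for Psmb4. The median of the member means was 0.03 (0.012 without pair 2 and 0.090 without pair 1). With arrays centered on their median in place of loess, that median was -0.25 and the mean of Psma6 was -0.60. No member passed limma at an adjusted p under 0.05 (0 of 34, against 0% of all genes), and none passed at an unadjusted p under 0.05 (0 of 34, against 2.88% of all genes). The rank product called 0 of 34 higher (0.0444% of all genes) and 0 of 34 lower (0.0533%). The adjusted p of every member was 0.999. With loess, the members also varied less between pairs than most genes. Their median SD over the 3 pairs was 0.242, against 0.329 over all genes tested, and 25 of 34 had an SD below that of the median gene. This was not particular to them, since the median SD was 0.253 for the COP9 signalosome. It was 0.380 for the CCT chaperonin and 0.428 for eIF3. The SDs with median centering were not examined. Arrays A and B of a pair differed by a median technical SD of 0.0468 for the members, so most of the spread lay between pairs and not between arrays. Across the 34 members, arrays A and B correlated with r = 0.969, 0.957 and 0.975 in pairs 1, 2 and 3.

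**Figure D1:**
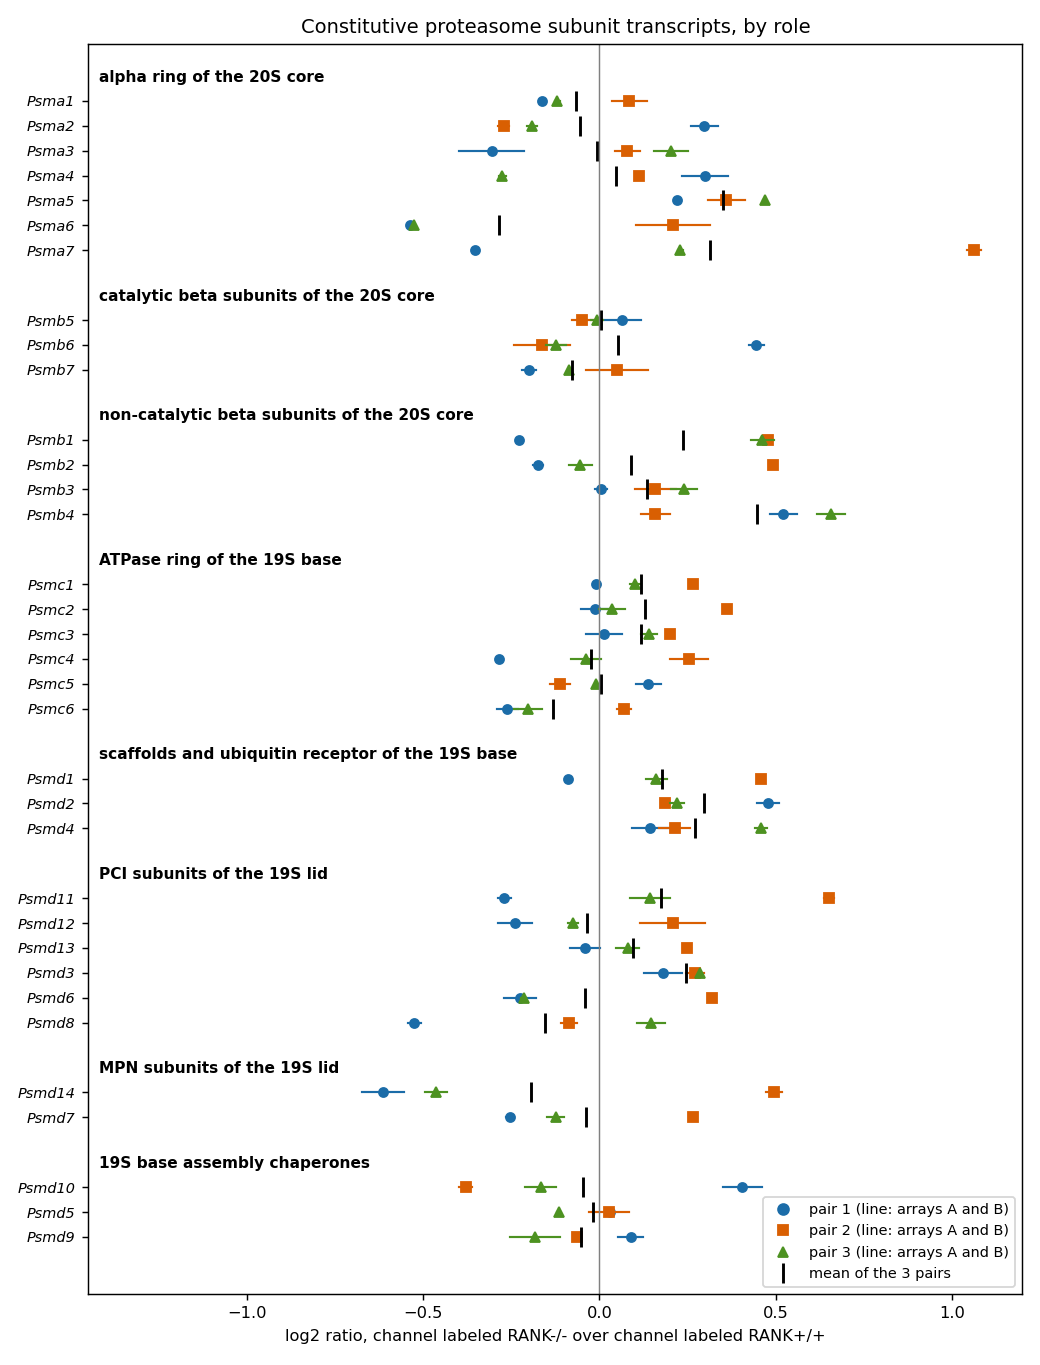
Log2 ratio of the channel labeled RANK-/- over the channel labeled RANK+/+ (x axis) for each of the 34 members, grouped by role (y axis). Symbols give the ratio of each pair, colored lines join its arrays A and B, and black ticks give the mean of the 3 pairs, which runs from -0.29 for Psma6 to 0.45 for Psmb4.

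The member ratios differed from pair to pair. In pair 1, 15 of 34 were above 0, where 52% of all genes were, and the member median was -0.03. In pair 2, 27 of 34 were above 0 (48.3% of all genes), with a median of 0.20. In pair 3, 16 of 34 were above 0 (50.1% of all genes), with a median of -0.01. The higher median of pair 2 rested on the correction for signal intensity. With arrays centered on their median in place of loess, 25, 7 and 0 of 34 members were above 0 in pairs 1, 2 and 3, and the median of all genes was itself 0.131, -0.186 and -0.393. Measured from the median of all genes in the same pair, the member medians were -0.0414, 0.216 and -0.0094 with loess and 0.0932, -0.05 and -0.345 with median centering. The member probes were bright, with a median log2 intensity of 13.46 over both channels, and 91.6% of all genes tested had dimmer probes than this. Intensities of different probes are not amounts of transcript, so they were not compared further. The part of brightness in these medians was not tested. With the other processing choices tried, pair 2 stayed the highest, between 0.145 and 0.233 above all genes.

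**Figure D2:**
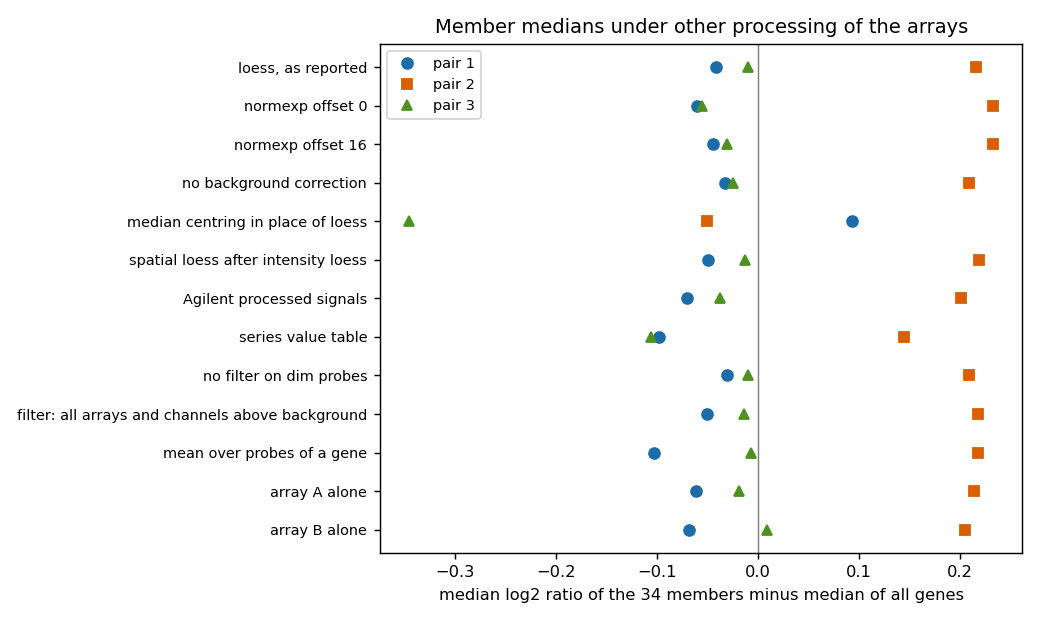
Median log2 ratio of the 34 members minus the median of all genes (x axis) in each pair, for the reported processing and 12 others (y axis). Pair 2 lies between 0.145 and 0.233 in every row but median centering, where it lies at -0.05 and pair 3 at -0.345.

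Across the 34 members the ratios of pairs 1 and 2 ran against each other (r = -0.449), while those of pairs 1 and 3 (r = 0.326) and pairs 2 and 3 (r = 0.271) ran weakly together. These correlations are a description over genes whose points share arrays and dye orientation. Of the members, 7 of 34 had a ratio above 0 in all 3 pairs (20.6%, against 9.93% of all genes). They were Psma5, Psmb3, Psmb4, Psmc3, Psmd2, Psmd3 and Psmd4. By the brightest probe, none was lower in all 3 pairs (0 of 34, against 9.65% of all genes), though the dimmer probe of Psmd10 was. When the pair was measured from the median of all genes, Psmb3 and Psmc3 dropped out and the other 5 remained, and with median centering only Psma5 did.

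**Figure D3:**
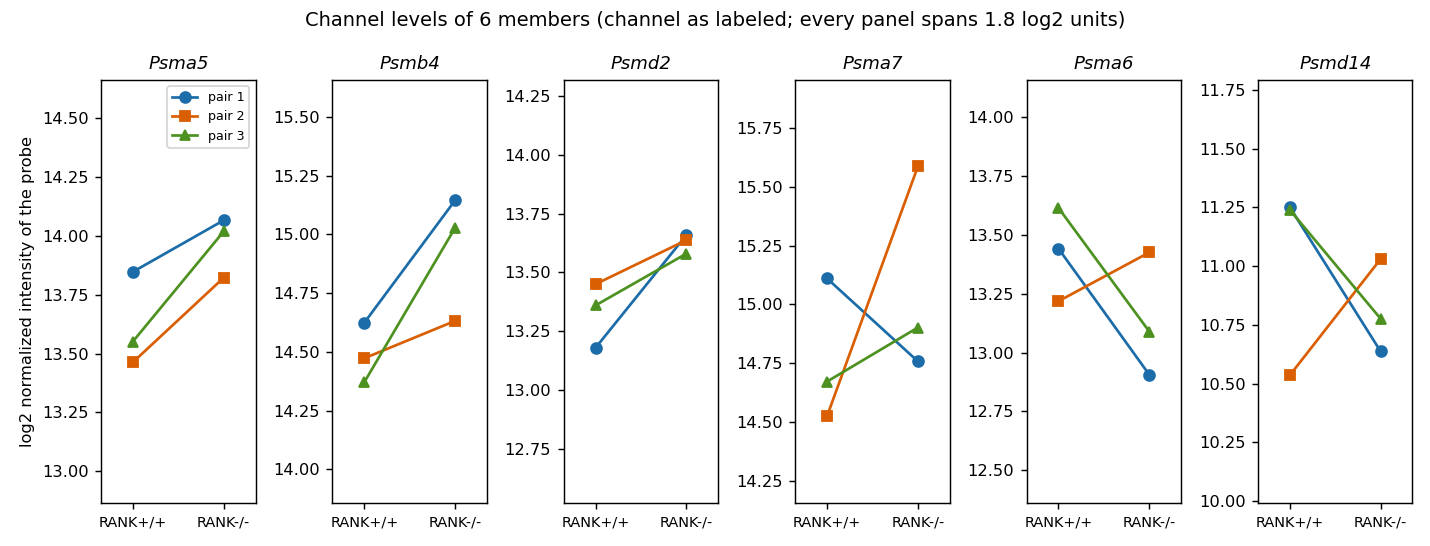
Log2 normalized intensity (y axis) of 6 members in the channel labeled RANK+/+ and the channel labeled RANK-/- (x axis), 1 line for each pair. In Psma5, Psmb4 and Psmd2 every line slopes up, while in Psma7, Psma6 and Psmd14 the lines of the pairs cross.

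In the alpha ring, which gates the entry to the core, 3 of 7 members were above 0 in pair 1, 6 in pair 2 and 3 in pair 3. Psma5 was the highest by mean. Its log2 intensity was 13.85, 13.46 and 13.55 in the channels labeled RANK+/+ and 14.07, 13.82 and 14.02 in those labeled RANK-/-, in pairs 1, 2 and 3. The channel labeled RANK-/- was the higher of each pair, by 0.22, 0.36 and 0.47, but the channels overlapped across pairs. Its mean log2 ratio was 0.35 ± 0.12 (SD, n = 3), or 1.16- to 1.38-fold in single pairs, with an unadjusted limma p of 0.0664 and an adjusted p of 0.999. Psma6 was the lowest. Its log2 ratio was -0.54 in pair 1, 0.21 in pair 2 and -0.53 in pair 3, for a mean of -0.29 ± 0.43 (SD, n = 3). Its log2 intensity was 13.44, 13.22 and 13.62 in the channels labeled RANK+/+ and 12.91, 13.43 and 13.09 in those labeled RANK-/-. The channel labeled RANK-/- was the lower in pairs 1 and 3 and the higher in pair 2. Its promoter table holds 2 windows, so neither is printed.

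Psma7 was the only member to reach a 2-fold difference in any pair (1 of 34, or 2.94%, against 14.9% of all genes). It is named for that value. Its log2 ratio was -0.35 in pair 1, 1.06 in pair 2, which is 2.09-fold, and 0.23 in pair 3. Its log2 intensity was 15.11, 14.52 and 14.67 in the channels labeled RANK+/+ and 14.76, 15.59 and 14.90 in those labeled RANK-/-. The mean was 0.31 ± 0.71 (SD, n = 3), the widest spread of any member, and without pair 2 it was -0.06. The remaining alpha subunits, Psma1, Psma2, Psma3 and Psma4, stayed between -0.31 and 0.30 in every pair and changed sign between pairs.

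The catalytic beta subunits had mean log2 ratios near 0, though Psmb6 reached 0.45 in pair 1. Psmb5, the chymotrypsin-like subunit and main target of proteasome inhibitor drugs, had a log2 ratio of 0.07, -0.05 and -0.01 in pairs 1, 2 and 3, for a mean of 0.00 ± 0.06 (SD, n = 3) and a 95% interval from -0.36 to 0.37. Its log2 intensity was 15.44, 15.14 and 15.06 in the channels labeled RANK+/+ and 15.50, 15.09 and 15.05 in those labeled RANK-/-. A dimmer probe for Psmb5 gave -0.26, 0.20 and 0.17, so the gene's near-zero values were those of 1 probe. Psmb6, the caspase-like subunit, was 0.45 in pair 1 and -0.16 and -0.12 in pairs 2 and 3. Psmb7, the trypsin-like subunit, was -0.20, 0.05 and -0.09. The 95% interval of the mean ran from -0.46 to 0.56 for Psmb6 and from -0.46 to 0.31 for Psmb7, so differences of up to about those sizes were within the error of 3 pairs.

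Most non-catalytic beta subunits were above 0, with 2, 4 and 3 of 4 above 0 in pairs 1, 2 and 3. Psmb4 had the highest mean of all 34 members, and its promoter window, like that of Psma5, held none of the 4 motifs. Its log2 intensity was 14.62, 14.47 and 14.37 in the channels labeled RANK+/+ and 15.14, 14.63 and 15.03 in those labeled RANK-/-. The lowest channel labeled RANK-/- (14.632) was just above the highest channel labeled RANK+/+ (14.624), so the groups did not overlap. The technical SD of the ratio of this probe, 0.056, was larger than that gap. Its mean log2 ratio was 0.45 ± 0.26 (SD, n = 3), with pair values of 0.52, 0.16 and 0.66, an unadjusted limma p of 0.0527 and an adjusted p of 0.999. Groups without overlap were found for 2 of 34 members in the higher direction, Psmb4 and Psmd2 (5.88%, against 3.66% of all genes), and for 0 in the lower direction (3.82% of all genes). Psmb3 was higher in all pairs by 0.005, 0.16 and 0.24, but in pair 1 arrays A and B read -0.013 and 0.023. Psmb2 had the lowest mean of the group, 0.09, with -0.17, 0.49 and -0.05. Psmb1 was -0.23 in pair 1 and 0.48 and 0.46 in pairs 2 and 3.

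In the 19S base, the ATPase ring, which unfolds substrates, stayed between -0.28 and 0.36 in every pair for all 6 members. Psmc2 was the highest by mean, with -0.01, 0.36 and 0.04 (mean 0.13 ± 0.20, SD, n = 3, and 0.012 without pair 2). Psmc6 was the lowest, with -0.26, 0.07 and -0.20 (mean -0.13 ± 0.18, SD, n = 3). Psmc3 was above 0 in all pairs by 0.01, 0.20 and 0.14, but its second probe gave -0.14 in pair 1. In that pair arrays A and B read -0.038 and 0.064 for its brightest probe. Psmc1, Psmc4 and Psmc5 changed sign between pairs.

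The scaffolds and the ubiquitin receptor of the base were the group with the highest median of means, 0.27. Psmd2 (Rpn1), a scaffold that docks ubiquitin shuttle factors, had a log2 intensity of 13.18, 13.45 and 13.36 in the channels labeled RANK+/+ and 13.66, 13.64 and 13.58 in those labeled RANK-/-. All of the latter were above all of the former. Its log2 ratio was 0.48, 0.19 and 0.22, for a mean of 0.30 ± 0.16 (SD, n = 3) and an unadjusted p of 0.112. Psmd4 (Rpn10), which binds ubiquitin chains, was higher by 0.14, 0.21 and 0.46 (mean 0.27 ± 0.17, SD, n = 3). Psmd1 (Rpn2), the other scaffold, was -0.09 in pair 1 and 0.46 and 0.16 in pairs 2 and 3.

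In the lid, the pattern of pair 2 was plainest, with 1, 7 and 4 of 8 members above 0 in pairs 1, 2 and 3. Psmd3 (Rpn3) had the smallest SD of any member, with 0.18, 0.27 and 0.29, with a mean of 0.25 ± 0.06 (SD, n = 3), an unadjusted p of 0.14 and an adjusted p of 0.999 by limma. Psmd8 (Rpn12) was the lowest of the subunits built on a PCI fold, with -0.53, -0.09 and 0.15. Psmd14 (Rpn11), the deubiquitinase that cuts the chain off the substrate and whose promoter is shown above, was below 0 in pairs 1 and 3, at -0.61 and -0.46, and above 0 in pair 2, at 0.49. Its log2 intensity was 11.25, 10.54 and 11.24 in the channels labeled RANK+/+ and 10.64, 11.03 and 10.78 in those labeled RANK-/-. The mean was -0.19 ± 0.60 (SD, n = 3). Its partner Psmd7 (Rpn8) had the same signs with smaller values, -0.25, 0.27 and -0.12. Psmd11 (Rpn6), a lid scaffold, was -0.27, 0.65 and 0.14, and Psmd6, Psmd12 and Psmd13 were likewise highest in pair 2.

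The assembly chaperones of the base did not share the higher values of pair 2. Psmd10 (gankyrin) was 0.41, -0.38 and -0.17, Psmd9 was 0.09, -0.06 and -0.18, and Psmd5 was 0.03, 0.03 and -0.12. These values lean on the probe for Psmd10 and Psmd9. The second probe of Psmd10 read -0.40, -0.31 and -0.28, below 0 in all 3 pairs, with a mean of -0.33. The second probe of Psmd9 read 0.50 and -0.51 in pairs 1 and 2. Among the 8 members with more than 1 probe, the largest difference between probes in 1 pair was 0.802 for Psmd10 and 0.452 for Psmd9, and it was under 0.35 for the other 6.

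The inducible catalytic subunits, which replace the constitutive ones in the immunoproteasome after interferon, were set beside them within each pair. Psmb8 was -0.06, 1.50 and 1.40, Psmb9 was -0.20, 1.72 and 1.30, and Psmb10 was 0.60, 1.00 and 0.85. All 3 were thus higher in the channel labeled RANK-/- in pairs 2 and 3, and in pair 1 only Psmb10 was. In pairs 2 and 3 the brightest probes of their constitutive counterparts lay between -0.16 and 0.05. The dimmer Psmb5 probe read 0.20 and 0.17 there, and the differences below use the brightest probes. Psmb10 minus Psmb7 was 0.80, 0.95 and 0.94 (mean 0.89 ± 0.08, SD, n = 3), with an exact two-sided sign-flip p of 0.25, the smallest that 3 pairs allow. Psmb8 minus Psmb5 was -0.13, 1.54 and 1.40, and Psmb9 minus Psmb6 was -0.64, 1.88 and 1.42, each with an exact p of 0.5. Adjusted over these 3 comparisons, p was 0.5 for each by the exact sign-flip test. None of the 3 inducible genes passed limma after adjustment.

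**Figure D4:**
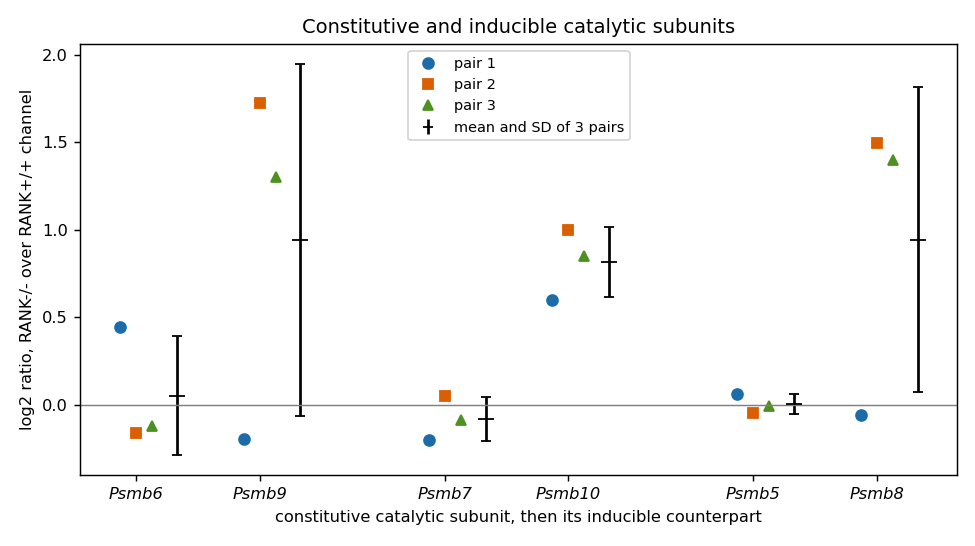
Log2 ratio (y axis) of each constitutive catalytic subunit and its inducible counterpart (x axis), with the 3 pairs as symbols and the mean and SD as bars. Psmb8, Psmb9 and Psmb10 lie between 0.85 and 1.72 in pairs 2 and 3. The brightest probes of the constitutive subunits lie between -0.16 and 0.05 there.

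Of the genes that act with the proteasome, 0 passed limma after adjustment or the rank product, and only Psmb10 and Adrm1 had an unadjusted limma p under 0.05. Among the receptors and enzymes of the cap, Adrm1 (Rpn13), a ubiquitin receptor, was higher in all 3 pairs by 0.17, 0.91 and 0.69 (mean 0.59 ± 0.38, SD, n = 3), with an unadjusted limma p of 0.0386 and an adjusted p of 0.999. Its other 4 members, Sem1, Uchl5, Usp14 and Ube3c, had means between -0.09 and 0.06. Among the activators and the inhibitor, Psme1 (PA28 alpha) was higher by 0.005, 0.51 and 0.11, and Psme3 (PA28 gamma) was 1.00, -0.90 and -0.58. Psme2 was not analysed here, because no probe accession matched it. Of the 6 assembly factors tested, Psmg1, a 20S assembly chaperone, was higher in all pairs by 0.05, 0.24 and 0.22, and Pomp, which matures the beta ring, was 0.53, -0.36 and 0.30. Paaf1 was not analysed here for the same reason as Psme2. Psma8 and Psmb11 were well above background on 0 arrays.

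Of the regulators of proteasome transcription, 3, 4 and 7 of 8 were above 0 in pairs 1, 2 and 3. Nfe2l1 was -0.37, 0.12 and 0.46, and Nfe2l2 (NRF2) was -0.91, 0.36 and 1.25, and 0 of the 8 genes of this list had 1 sign in all pairs, where 9.93% of all genes tested were higher and 9.65% lower in all pairs. The 5 members with antioxidant response element letters in their promoters had mean ratios between -0.13 and 0.05. Of the 7 ubiquitin shuttle factors, 0 had 1 sign in all pairs, and their median was -0.04, -0.09 and 0.20. Uba1, the main ubiquitin-activating enzyme, was higher by 0.54, 0.12 and 0.13. Vcp (p97), the segregase that hands substrates to the proteasome, was 0.65, 0.02 and 0.60, and its cofactor Faf2 was below 0 in all pairs, at -0.05, -0.12 and -0.56.

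Other large complexes were set beside the members as a description. The COP9 signalosome, which resembles the lid in build, had medians of -0.05, 0.23 and -0.23 over 9 genes, eIF3 had -0.28, 0.32 and 0.11 over 14, and the CCT chaperonin had -0.13, 0.13 and -0.20 over 8. Pair 2 was the highest in each, as it was for the proteasome members at -0.03, 0.20 and -0.01. The 21 proliferation genes had medians of -0.77, 0.55 and -1.02, and the 21 ribosome biogenesis genes -0.48, 0.29 and -0.51, with 20 and 19 of 21 above 0 in pair 2 and 0 and 1 in pair 3. The difference between the proteasome members and these lists was not tested. Both lists, like the members, had their highest median in pair 2, and the part of proliferation genes in the member values was not tested.

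**Figure D5:**
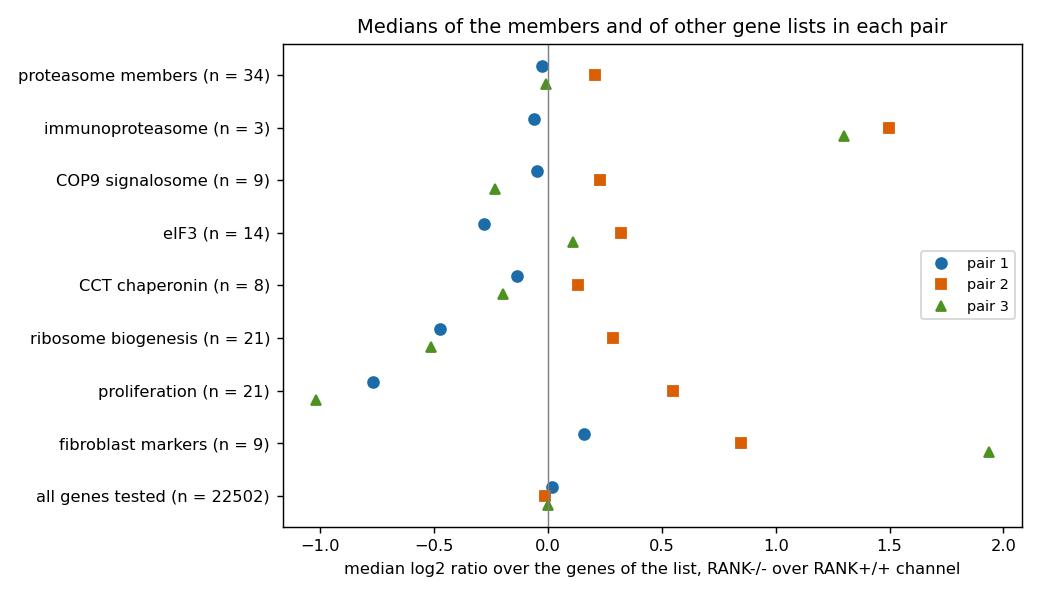
Median log2 ratio (x axis) in each pair for the proteasome members, other lists and all genes tested (y axis, with the number of genes). Pair 2 is the highest for the members, the 3 complexes, ribosome biogenesis and proliferation, and the fibroblast markers reach 1.94 in pair 3.

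Markers of other cells also differed between pairs. The 9 fibroblast markers had medians of 0.16, 0.85 and 1.94. The log2 of their summed intensities, called the sum below, ran from 17.13 to 17.84 in the channels labeled RANK-/-. It ran from 15.66 to 17.18 in those labeled RANK+/+. The 8 epithelial markers had medians of -0.02, -0.61 and 0.50, with sums from 17.14 to 18.80 and from 17.49 to 18.14. Of these markers, 4, 1 and 7 were above 0 in pairs 1, 2 and 3, and the lowest in pair 2 read -3.95. Of the 13 leukocyte markers, 8 were tested, Cd79a and Ncr1 were among those not well above background on any array, and the sums of the tested markers ran from 14.36 to 14.51 and from 13.70 to 15.14. The medians of the 8 tested were -0.19, 0.09 and 0.08. S100a8, a neutrophil gene singled out after its values were seen, was -3.99, 0.07 and -0.11. The 7 endothelial markers had medians of -0.02, -0.10 and 0.55, with sums from 11.77 to 12.03 and from 11.45 to 11.93. In bulk RNA, fewer cells of a type and less RNA per cell cannot be told apart, and the part of these cells in the member ratios was not tested.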

How the data were processed

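The authors sorted live CD45- tumor cells, labeled amplified RNA with Cy3 and Cy5 and hybridized it to SurePrint G3 Mouse arrays. The scanner tables, extracted by the authors with Feature Extraction 10.7.3.1, give median spot and background intensity in both channels without normalization. A deposited table of the whole series gives log2 ratios already normalized by the authors. Set against the scanner ratios, its direction, which nothing states, was RANK-/- over RANK+/+ on all 6 arrays (r from 0.95 to 0.962). It served as an alternative, as did the processed intensity of the deposited scanner tables.

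Median intensities of 62976 spots per array were corrected with normexp (offset 50) and normalized by intensity loess and Aquantile in limma 3.58.1 (R 4.3.3, data.table version 1.17.8). Control spots (3671) and 212 to 260 outlier spots were left out, and 0 were saturated. The spatial loess that the methods also name was run as an alternative. Ratios were turned by the dyes in the sample titles, and arrays A and B were averaged, giving n = 3 pairs. The filter kept the 30231 probes that Feature Extraction marked above background, in 1 genotype, on arrays A and B of 2 or more pairs. Symbols came from RefSeq by accession (28026 probes), and the brightest probe stood for a gene. The level in a channel was taken from the mean intensity and the ratio of its probe.

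Genes were tested with limma (two-sided, Benjamini-Hochberg over 22502 genes, threshold 0.05) and with a rank product (500 random draws, pfp threshold 0.05). Both were tested on simulated data, where the rank product also called some unchanged genes of wide spread. Named genes were the catalytic subunits, the highest and lowest of each role, members of 1 sign in all pairs, and set members of the other lists; all other members were named for their pair values. Members and lists were chosen with earlier results of these data known. All arrays lay on 1 slide with 1 scan date, so no batch could be tested. The number of arrays limits the precision. Figures were drawn with matplotlib. Some items are not reported here.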

Additional observations from a re-analysis of the deposited data

How the results depend on the processing

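No member was called by limma under any of the 20 alternatives or by the rank product under any of the 17 it was run on (0 each); the rank product was not run with a dye term, robust eBayes or a random pair block, and slide could not be a block, since there was 1. The smallest adjusted p of a member was 0.0658 with the 6 arrays taken as separate replicates, which counts technical arrays as samples. Pairs share arrays, not a number: channels of a pair deviated from their group means with r of -0.0335, -0.218 and -0.0412, and a fit with no replicate block called 0 members by limma (smallest adjusted p 0.999).

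With median centering in place of loess, the member medians were 0.22, -0.24 and -0.74 in pairs 1, 2 and 3, the median of the member means was -0.25, 25, 7 and 0 members were above 0, and 0 were higher and 6 lower in all pairs. The means of named members then turned to -0.088 for Psma7, -0.11 for Psmb2, -0.26 for Psmb3, -0.41 for Psmb5 and -0.37 for Psmb6. They turned to -0.22 for Psmc2, -0.31 for Psmc3, -0.14 for Psmd1, -0.026 for Psmd2, -0.14 for Psmd3 and -0.087 for Psmd4. Psma5 (0.02) and Psmb4 (0.06) stayed above 0. The other named members recomputed, below 0 with loess, fell further. Psma6 fell to -0.60, Psmb7 to -0.34, Psmc6 to -0.35 and Psmd14 to -0.41. Psmd5 fell to -0.23, Psmd7 to -0.27, Psmd8 to -0.42 and Psmd9 to -0.25. The cause was not tested. The series table put 10 members above 0 in pair 3, 4 higher in all pairs and 1 lower. Members lower in all pairs numbered 3 with the processed signals and 1 with array B alone. The mean of Psmb5, near 0, turned to -0.017 with offset 0, -0.0496 in the series table and -0.0300 with array A alone.

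Leaving out 1 pair gave 7 to 15 members higher and 1 to 10 lower in the pairs left, 15 of them higher without pair 1 and 10 lower without pair 2, since fewer pairs must agree in sign. Mean ratios crossed 0 for Psma7 (-0.061 to 0.65), Psmb2 (-0.11 to 0.22), Psmb5 (-0.028 to 0.029), Psmb6 (-0.14 to 0.16), Psmd14 (-0.54 to 0.016), Psmd5 (-0.044 to 0.029), Psmd7 (-0.19 to 0.072), Psmd8 (-0.31 to 0.0302) and Psmd9 (-0.12 to 0.014). Those of Psma5, Psma6, Psmb3, Psmb4, Psmb7, Psmc2, Psmc3, Psmc6, Psmd1, Psmd2, Psmd3 and Psmd4 kept their sign, but that of Psma6 ran from -0.53 without pair 2 to -0.16, that of Psmc2 from 0.012 without pair 2 to 0.20, and that of Psmd1 from 0.036 without pair 2 to 0.31. Means of the other members were not recomputed one by one. The median of the member means ran from 0.012 without pair 2 to 0.090 without pair 1, and was -0.03 in the series table and 0.0071 with offset 0. The motif counts kept within 1.5 times when only the bases before the start were searched.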
